A study of Mus musculus with 5 samples.

Results

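The 10 genes described here are markers of reactive astrocytes: the filament genes Gfap, Vim and Nes, the secreted acute-phase genes Serpina3n and Lcn2, the surface and membrane genes Cd44, S1pr3 and Steap4, and Osmr and Stat3 of the cytokine signal that drives many of the others. They were chosen by gene symbol, and all 10 are among the 18783 genes of the authors' deposited table. RNA was sequenced from primary astrocyte cultures of C57BL/6 mice, prepared from newborn pups and grown in medium with horse and fetal bovine serum. Control cultures (2 libraries) were naive, Aβ cultures (2 libraries) received 1 µM amyloid-β peptide, and Aβ+DFMO cultures (1 library) received 1 µM Aβ together with 50 µM DFMO. Treatment lasted 5 days from day 7 in vitro, and all cells were taken at day 12. DFMO (difluoromethylornithine) inhibits ornithine decarboxylase, the enzyme that makes putrescine. Whether both libraries of a group stem from different cultures is not in the labels, so the spread behind the p-values may be technical.

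Astrocytes respond to injury, infection and protein deposits with a change of state called reactive gliosis. The cells enlarge their intermediate filament network, which is built of GFAP and vimentin with nestin as a partner, and secrete proteins of the acute-phase response. A main route runs from cytokines of the interleukin-6 family, among them oncostatin M, through receptors such as OSMR and the shared subunit gp130 (Il6st) to Janus kinases and the transcription factor STAT3. Astrocytes cultured in serum are known to show features of this state without further treatment.

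Only the authors' mean of each group was used for each gene, on a scale that they had normalized between libraries, so the values below carry no spread between libraries of their own. Sequencing depth was 46886111 to 105544237 reads in the Control and Aβ libraries and 4825677 in the Aβ+DFMO library. In that library 1 read was worth about 7.45 units of normalized signal, which gives an estimated number of reads behind each gene there. All 10 astrocyte markers were measured, as were 10 of microglia and macrophages and 10 of the oligodendrocyte lineage. Presence alone therefore does not check the label. The authors' means in Control were 37554 for Slc1a3 and 19117 for Aqp4, although Gjb6 stood at only 9.86. Markers of other cells were also measured, over wide ranges of the authors' Control means. They ran from 104 (Aif1) to 4455 (Cx3cr1) for 10 of microglia and macrophages, and from 109 (Mog) to 17131 (Olig1) for 10 of the oligodendrocyte lineage. For 8 of fibroblasts and meninges they ran from 3.28 (Pi16) to 19455 (Fn1), with Lum at 18.2 and Dcn at 78.1, and for 6 of smooth muscle and mural cells from 24.1 (Des) to 65706 (Acta2), with Myh11 at 107. The range was 50.7 (Snap25) to 10827 (Map2) for 6 of neurons and 1.10 (Tmem212) to 4489 (Foxj1) for 5 of ependyma. It was 1179 (Pax6) to 23909.5 (Fabp7) for 5 of neural progenitors and radial glia, and 5.10 (Tek) to 480 (Flt1) for 4 of endothelium.

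The members differed widely in level. Per kilobase of transcript, the authors' Control mean of Vim was 94709 units, which ranked 6 among the 18459 genes with a transcript length. Gfap stood at 21605 units per kilobase and ranked 46. Serpina3n (8108) and Nes (5849) came next on the same scale, and thus 4 of the 10 members were among the most abundant transcripts of these cultures. S1pr3 (1718 units per kilobase), Lcn2 (1673), Cd44 (1398), Stat3 (1361) and Osmr (1240) lay close together. Steap4 was the lowest member, at 186 units per kilobase, and ranked 8787. The neighbours in this middle group cannot be put in a firm order, because their spread over libraries was not used here and transcript length depends on the isoform chosen. Together the 10 genes made up 1.15% of the summed normalized signal in Control, 1.196% in Aβ and 0.999% in Aβ+DFMO.

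**Figure D1:**
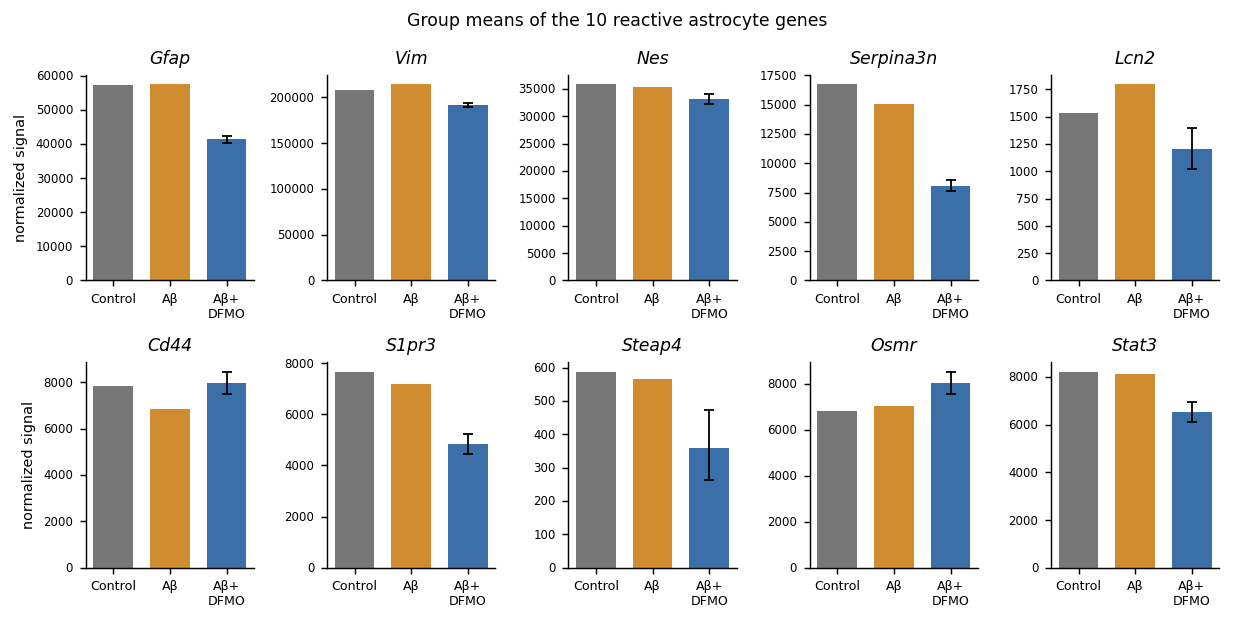
The authors' group means of normalized signal for the 10 genes in Control (2 libraries), Aβ (2 libraries) and Aβ+DFMO (1 library); each panel has its own linear axis from 0, and the bar on Aβ+DFMO is the exact Poisson 95% interval of the estimated reads, which covers counting error only. The Control and Aβ bars differ most for Lcn2, at 1530 and 1796, and Serpina3n shows the deepest drop in Aβ+DFMO, from 15050 in Aβ to 8086.

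Aβ was set against Control to see how the peptide alters naive cultures, and none of the 10 reactive genes passed. By DESeq2 in the authors' deposited table, 0 of 10 members had an adjusted p under 0.05 for Aβ against Control, where 0.287% of all genes did (54 of 18783). At an unadjusted p under 0.05 there was 1 member, Cd44, against 1.72% of all genes. The members' median log2 ratio was −0.02, and that of all genes was 0.00. In the authors' deposited table, 4 members lay above 0 and 6 below, between −0.20 and 0.23.

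The filament genes had nearly the same means in both groups. Gfap, the filament protein that defines astrocytes, had an authors' mean of 57209 in Control and 57495 in Aβ. Its log2 ratio in the authors' deposited table was 0.01, with a 95% interval of −0.16 to 0.18 from the implied standard error of 0.087 (adjusted p = 1.00 by DESeq2). Here and below, the implied standard error is the size of the log2 ratio divided by the normal deviate of the authors' two-sided p. Vim, vimentin, had 207696 in Control and 214390 in Aβ (log2 ratio 0.05 in the authors' deposited table, interval −0.09 to 0.18). Nes, nestin, a large filament protein of progenitors and reactive cells, had 35830 and 35265 (−0.02 in the authors' deposited table, interval −0.19 to 0.15). For these 3 genes the intervals reach at most 0.19 from 0 on the log2 scale.

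Among the other members the largest differences were small and ran both ways. Lcn2, lipocalin-2, a secreted protein that binds iron-carrying siderophores, had authors' means of 1530 in Control and 1796 in Aβ; its log2 ratio in the authors' deposited table was 0.23, the highest of the 10 (interval −0.01 to 0.47, unadjusted p = 0.0589, adjusted p = 1.00 by DESeq2). Cd44, the hyaluronan receptor, had the lowest, with means of 7848 and 6825 and a log2 ratio in the authors' deposited table of −0.20 (interval −0.36 to −0.04, unadjusted p = 0.0153, adjusted p = 1.00 by DESeq2). Serpina3n, a serine protease inhibitor of the acute phase, had 16735 and 15050 (−0.15 in the authors' deposited table, unadjusted p = 0.0825). The remaining 4 genes, S1pr3, Steap4, Osmr and Stat3, had log2 ratios from −0.09 to 0.05 in the authors' deposited table. Steap4 had the widest interval, −0.38 to 0.27.

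**Figure D2:**
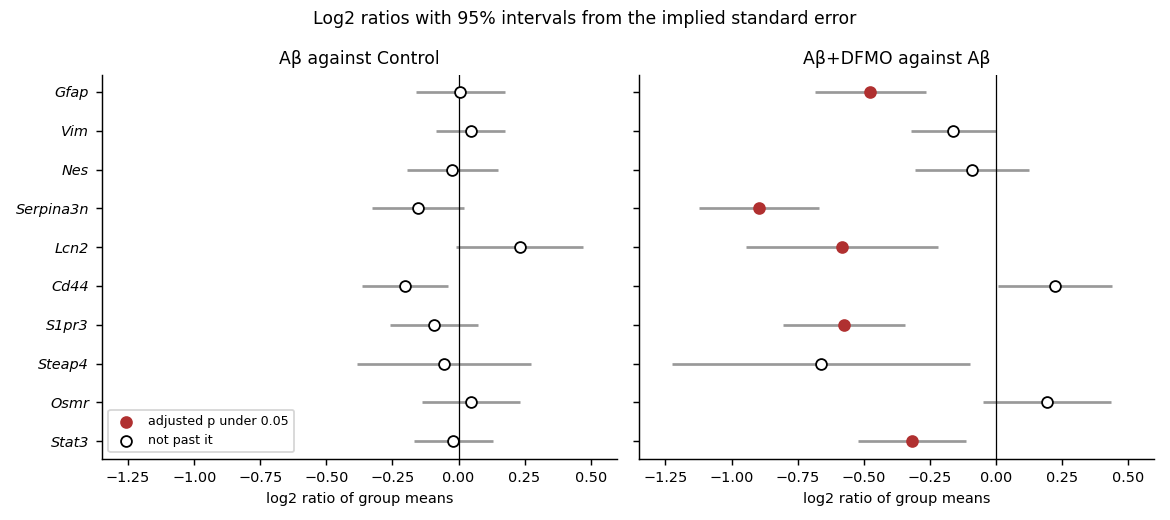
Log2 ratios of the 10 genes in the authors' table for Aβ against Control (left) and Aβ+DFMO against Aβ (right), with lines for the 95% interval from the implied standard error; filled points have an adjusted p under 0.05. No point is filled on the left, and 5 are filled on the right, all below 0. The comparisons share the Aβ libraries.

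Aβ+DFMO was set against Aβ to see what DFMO alters in the presence of the peptide, and here 5 of the 10 members fell: Serpina3n, S1pr3, Lcn2, Gfap and Stat3. By the same rule 5.18% of all genes in the authors' deposited table were lower, and 9.18% passed in either direction. Among the 11780 genes at 200 units or more in Aβ, which all 10 members exceed, 8.17% were lower. In the authors' deposited table, 8 members lay below 0 and 2 above, with a median log2 ratio of −0.39 against 0.01 over all genes. Each of these calls rests on 1 shallow library, and the authors' model treats that library as varying like the others. In whole cultures, fewer cells of a type and less RNA per cell cannot be told apart.

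The comparison followed the GC content of the transcripts. Across the 11660 genes at 200 units or more in Aβ that have a GC value, Spearman's rho between GC content and the log2 ratio of Aβ+DFMO against Aβ was −0.71 and Pearson's r was −0.68. These are descriptions across genes, which share the same libraries and are not independent replicates. The matching values for Aβ against Control were 0.12 and 0.08. The median GC content of the members was 52.2%, against 49.7% over those genes, and 7 of the 10 had a GC content of at least 50%. A smooth trend of the log2 ratio on GC content was therefore taken out, and p was recomputed with the same implied standard error. A property of the single Aβ+DFMO library and the effect of DFMO cannot be told apart as sources of this trend.

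**Figure D3:**
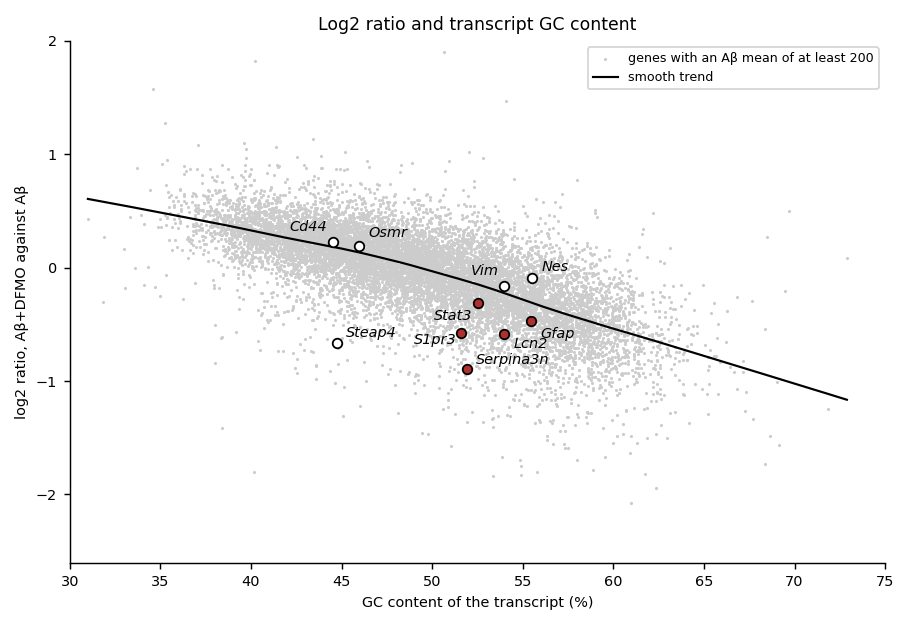
Log2 ratio of Aβ+DFMO against Aβ and GC content of the transcript (percent) for the genes at 200 units or more in Aβ (grey; 5 lie outside the axes), with the smooth trend (line) and the 10 members (circles, filled at an adjusted p under 0.05). Cd44, Osmr, Vim and Nes lie above the line; Serpina3n, S1pr3 and Steap4 lie well below it.

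After the trend was taken out, 2 of the 10 members were still lower, Serpina3n and S1pr3, where 0.726% of the 18459 genes with a GC value were. Gfap, Lcn2 and Stat3 no longer passed. Of the members, 6 then lay below 0 and 4 above, with a median of −0.17 against 0.02 over all genes.

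Of the 3 filament genes, Gfap passed in the deposited comparison. It had an authors' mean of 57495 in Aβ and 41383 in Aβ+DFMO, the latter from an estimated 5553 reads (exact Poisson 95% interval 5408 to 5701). It fell by 28.02%, at a log2 ratio in the authors' deposited table of −0.47 (implied standard error 0.108, adjusted p = 0.000587 by DESeq2). Its transcript has a GC content of 55.5%, where the trend stood at −0.31, and with the trend taken out the log2 ratio was −0.16 (interval −0.38 to 0.05, adjusted p = 0.764 with DESeq2's implied standard error). The value of the trend was thus larger in size than what remained for Gfap, with the error of the curve ignored. Single transcripts of like GC content scatter around that value.

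Vim had 214390 in Aβ and 191802 in Aβ+DFMO, from an estimated 25737 reads (log2 ratio −0.16 in the authors' deposited table, adjusted p = 0.242 by DESeq2). Nes had 35265 and 33139, from an estimated 4447 reads (−0.09 in the authors' deposited table, adjusted p = 0.737 by DESeq2). Neither passed, and both changed sign once the trend was taken out, Vim to 0.06 and Nes to 0.22 (interval 0.01 to 0.44, adjusted p = 0.509 with DESeq2's implied standard error). Per kilobase, the level of Gfap was 22.8% of that of Vim in Control, 22.2% in Aβ and 17.9% in Aβ+DFMO. Nes has nearly the same GC content as Gfap (55.5% in both), yet its deposited log2 ratio was −0.09 against −0.47; the difference between these genes was not tested.

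The secreted acute-phase genes were both lower. Serpina3n had the largest fall of the 10, with authors' means of 16735 in Control, 15050 in Aβ and 8086 in Aβ+DFMO. It fell by 46.3% against Aβ, at a log2 ratio in the authors' deposited table of −0.90 (implied standard error 0.116, adjusted p = 9.29e-12 by DESeq2), from an estimated 1085 reads. At its GC content of 51.9% the trend stood at −0.12, so most of the difference remained when it was taken out (−0.78, interval −1.004 to −0.55, adjusted p = 1.75e-08 with DESeq2's implied standard error). Serpina3n belongs to a cluster of similar genes, and the sources used here do not say how reads were divided between copies, so its level is uncertain to that extent. The paralogs Serpina3h and Serpina3i were each at an estimated 1 read in Aβ+DFMO. The other 8 Serpina3 paralogs looked for were not among the authors' 18783 genes, so their levels cannot be judged.

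Lcn2 had 1796 in Aβ and 1200 in Aβ+DFMO, from an estimated 161 reads (exact Poisson 95% interval 137 to 188). It fell by 33.2%, at a log2 ratio in the authors' deposited table of −0.58 (implied standard error 0.186, adjusted p = 0.0252 by DESeq2). With the GC trend taken out the log2 ratio was −0.36 (interval −0.72 to 0.01, adjusted p = 0.573 with DESeq2's implied standard error). Lcn2 is the member with the shortest transcript, 915 nucleotides, and a trend with length in place of GC content also ended the call (−0.52, adjusted p = 0.0536 with DESeq2's implied standard error).

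Of the 3 surface and membrane genes, S1pr3 passed. S1pr3, a receptor for sphingosine-1-phosphate, had authors' means of 7666 in Control, 7187 in Aβ and 4829 in Aβ+DFMO, the last from an estimated 648 reads. It fell by 32.8% against Aβ (log2 ratio −0.57 in the authors' deposited table, implied standard error 0.117, adjusted p = 9.35e-05 by DESeq2). With the GC trend taken out it still passed, at −0.47 (interval −0.70 to −0.24, adjusted p = 0.00756 with DESeq2's implied standard error).

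Cd44 had 6825 in Aβ and 7967 in Aβ+DFMO, against 7848 in Control, so its Aβ mean was the lowest of the 3. Its log2 ratio against Aβ was 0.22 in the authors' deposited table (unadjusted p = 0.0427, adjusted p = 0.217 by DESeq2) and did not pass. The Cd44 transcript is the poorest in GC of the 10, at 44.5%, where the trend stood at 0.18, and with the trend taken out 0.04 remained.

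Steap4, a metalloreductase of iron and copper, had 566 in Aβ and 358 in Aβ+DFMO. Only an estimated 48 reads lie behind the latter (exact Poisson 95% interval 35.4 to 63.6), and the log2 ratio of −0.66 in the authors' deposited table did not pass (implied standard error 0.288, unadjusted p = 0.0218, adjusted p = 0.142 by DESeq2). Its GC content of 44.7% is close to that of Cd44, and the trend there was positive, so with the trend taken out Steap4 lay lower still, at −0.84. That is the lowest corrected value of the 10, but its interval was wide, −1.40 to −0.27, and it did not pass (adjusted p = 0.143 with DESeq2's implied standard error).

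Of the cytokine receptor and the transcription factor, Stat3 passed as deposited and Osmr did not. Osmr, the receptor subunit for oncostatin M, had authors' means of 6806 in Control, 7031 in Aβ and 8034 in Aβ+DFMO (log2 ratio against Aβ 0.19 in the authors' deposited table, adjusted p = 0.400 by DESeq2). With the trend taken out it stood at 0.06 and again did not pass. Stat3 had 8225, 8115 and 6521, and fell by 19.6% against Aβ, at a log2 ratio in the authors' deposited table of −0.32 (implied standard error 0.104, adjusted p = 0.0326 by DESeq2). With the trend taken out it stood at −0.17 (interval −0.37 to 0.04, adjusted p = 0.727 with DESeq2's implied standard error).

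**Figure D4:**
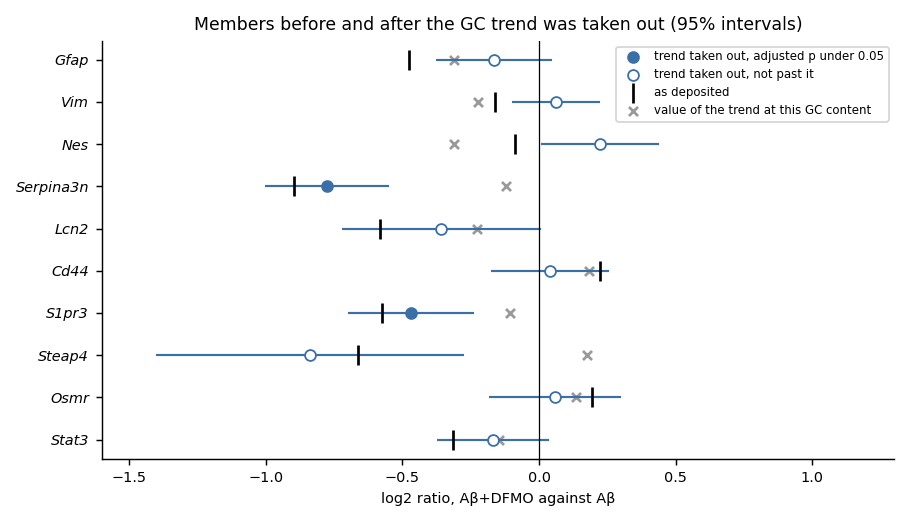
Log2 ratios of Aβ+DFMO against Aβ for the 10 genes as deposited (black ticks), the value of the GC trend at each gene's GC content (crosses), and the ratio with the trend taken out (circles, filled at an adjusted p under 0.05, with 95% intervals). Serpina3n and S1pr3 remain filled, at −0.78 and −0.47; Vim and Nes pass from below 0 to above it.

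Set against Control, for which no test was used, the authors' Aβ+DFMO means gave log2 ratios of −1.05 for Serpina3n, −0.72 for Steap4, −0.67 for S1pr3, −0.47 for Gfap, −0.35 for Lcn2 and −0.33 for Stat3. On the same scale Vim and Nes were at −0.11 each, Cd44 at 0.02 and Osmr at 0.24. The mean in Aβ+DFMO was below that of both other groups for 8 members and above both for Cd44 and Osmr. These ratios share the Aβ+DFMO library, and thus its GC trend, with those against Aβ.

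In GENCODE M21 (GRCm38), Gfap is on chromosome 11 at 102887336 to 102900912 on the minus strand, and Stat3 is on the same chromosome and strand at 100885098 to 100939540. Serpina3n (chromosome 12, 104406729 to 104414329), S1pr3 (chromosome 13, 51408639 to 51422797), Steap4 (chromosome 5, 7960457 to 7982213) and Nes (chromosome 3, 87971078 to 87980451) are on the plus strand, and Osmr is on the minus strand (chromosome 15, 6813577 to 6874969). Chromosome 2 holds Vim (13573927 to 13582826, plus strand), Lcn2 (32384633 to 32388252, minus strand) and Cd44 (102811141 to 102901665, minus strand). Exons of Stat3 overlap those of Stat5a, and exons of S1pr3 those of Gm32834, in both cases on the opposite strand, and the sources used here do not give the strand setting of the counting, so reads of the partners cannot be told apart. Both partners were low beside them in Aβ+DFMO, with authors' means of 278 for Stat5a and 14.9 for Gm32834.

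Since STAT3 acts by binding DNA, the RefSeq promoter windows of the 10 genes (GRCm38.p6, 250 bases before to 50 after the start) were searched on both strands for the STAT motif TTCNNNGAA and its stricter form TTCCNGGAA, which lies within it; both are palindromes. The strict form was in 2 of the 10 windows, Gfap and Steap4, and in 1.15% of 32851 windows of all genes; the looser form was in the same 2 windows and in 8.30% of all. The motif TGANTCA of AP-1, another palindrome, was in 1 of the 10, Osmr, and in 7.81% of all. The stretches around both strict matches are shown because they are the only ones found among the members, with the match in capitals, 5′ to 3′ on the strand of the gene. That of Gfap runs from 50 bases before the start to 7 after it (chr11:102897194-102897250), and that of Steap4 from 150 to 62 bases before it (chr5:7960322-7960410). The RefSeq start used for Gfap lies inside its GENCODE span given above, and so does the stretch shown.
Gfap: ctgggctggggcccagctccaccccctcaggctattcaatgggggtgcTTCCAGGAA
Steap4: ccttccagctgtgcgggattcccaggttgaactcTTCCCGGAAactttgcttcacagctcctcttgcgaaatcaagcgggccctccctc
A match describes letters only. Gfap fell in Aβ+DFMO as deposited and Steap4 did not pass, and the windows of Serpina3n and S1pr3, which passed with and without the GC trend, held neither form of the STAT motif.

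Related genes were read from 5 lists, beside a median log2 ratio of Aβ+DFMO against Aβ over all genes of 0.01, or 0.02 once the GC trend was out. The shares of all genes that passed, 5.18% lower and 9.18% in either direction, apply to the counts of each list and of the cell markers that follow. Of the 19 measured STAT3 target genes (20 were listed), 5 fell and 1 rose, with a median of −0.27. Socs3, the feedback inhibitor of this pathway, fell by 0.92 on the log2 scale from an estimated 77 reads (adjusted p = 0.000837 by DESeq2 in the authors' deposited table). In the authors' deposited table Junb, a transcription factor, fell by 1.11, Cebpb and Cebpd, transcription factors of the acute phase, by 0.82 and 0.60, and Bcl2l1, which opposes cell death, by 0.43. Mcl1, which also opposes cell death, rose by 0.31 in the authors' deposited table. Once the GC trend was out, only Cebpd of these passed (−0.49, adjusted p = 0.0138 with DESeq2's implied standard error), and the list's median was 0.00. Socs3, Junb and Cebpb have GC contents of 58.7%, 62.6% and 67.2%.

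Of the 24 measured genes of IL-6 family cytokines, receptors and JAK-STAT signalling, 1 fell and none rose, a share near that of all genes, with a median of −0.08 as deposited and 0.06 without the GC trend. It was Ptpn11, a phosphatase that relays and limits receptor signals, at −0.32 in the authors' deposited table (adjusted p = 0.0246 by DESeq2), and it did not pass with the GC trend taken out (−0.21). Il6st, the gp130 subunit that OSMR pairs with, was at 0.06 and Jak1 at 0.15 in the authors' deposited table. Il6 itself, named after its values were seen, rested on an estimated 7 reads in Aβ+DFMO (log2 ratio 2.42, adjusted p = 0.128 by DESeq2 in the authors' deposited table).

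Among 17 measured intermediate filament genes and linkers, 1 fell and none rose. Their median of −0.31 as deposited became −0.004 without the GC trend, with 8 genes above 0 and 9 below, at a median GC content of 56.5%. However, 7 of the 17 rested on fewer than 10 estimated reads in Aβ+DFMO. The deposited median is the value of Nefl, from an estimated 3 reads, so the median and the signs describe this list only loosely. The gene that fell was Plec, plectin, which ties filaments to one another, at −0.89 in the authors' deposited table (adjusted p = 0.0477 by DESeq2). Plec has a GC content of 61.3%, and with the trend taken out it stood at −0.29 and did not pass. The other linkers Dst and Macf1 were at −0.49 and −0.35 in the authors' deposited table and did not pass, at implied standard errors of 0.510 and 0.570.

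Of 8 measured further pan-reactive and acute-phase genes (20 were listed), 1 rose and none fell, with a median of −0.20 as deposited and −0.10 without the GC trend. Acute-phase genes such as Orm1, Saa1, Saa3, Hp and Fga were among those without values, so this list covers little of the acute phase. Thbs1, thrombospondin-1, a secreted protein that promotes synapses, rose from an authors' mean of 31749 in Aβ to 44938 (log2 ratio 0.50, adjusted p = 7.90e-06 by DESeq2 in the authors' deposited table), and it passed again with the trend taken out (0.53, adjusted p = 5.01e-06 with DESeq2's implied standard error). In the authors' deposited table the genes of the plasma proteins A2m (−0.17) and Cp (0.14) did not pass.

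Paralogs and partners of the members had 5 of 20 measured genes lower and none higher (34 were listed), with a median of −0.34 as deposited and −0.21 without the GC trend. The other sphingosine-1-phosphate receptors S1pr1 and S1pr2 fell beside S1pr3, by 0.35 and 0.75 on the log2 scale in the authors' deposited table (adjusted p = 0.0464 and 0.0323 by DESeq2). Neither passed with the GC trend taken out (−0.37 and −0.65), although their corrected values stayed near the deposited ones. Slc22a17, a receptor for lipocalin-2, fell by 1.12 in the authors' deposited table and then did not pass (−0.48), at a GC content of 62.2%. Steap3 fell by 1.12 from an estimated 26 reads in the authors' deposited table and then did not pass (−0.96). Spp1, osteopontin, a ligand of CD44, rose by 0.44 on the log2 scale against Control and then fell by 0.61 against Aβ (the authors' deposited table), and the fall also passed with the trend taken out (−0.83). Spp1 was the single gene of these 5 lists to pass in Aβ against Control.

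**Figure D5:**
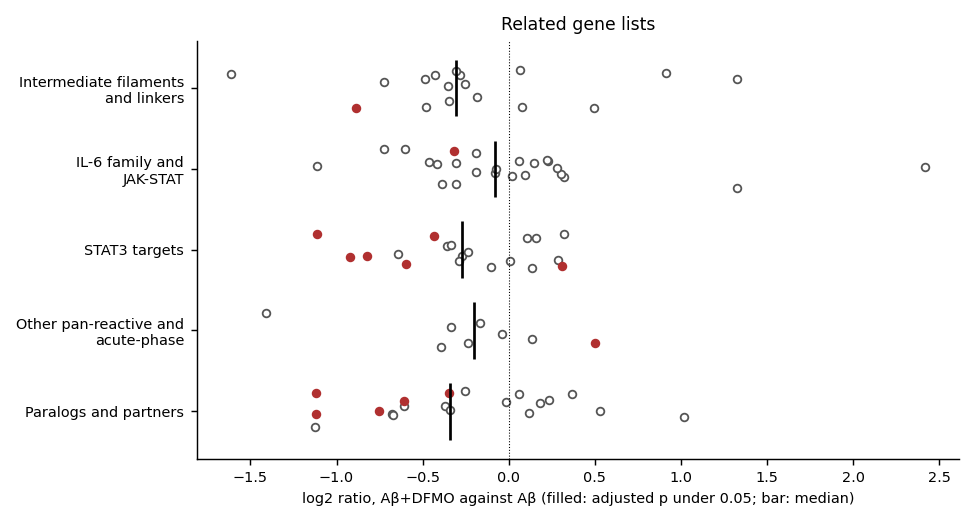
Log2 ratio of Aβ+DFMO against Aβ for the measured genes of the 5 related lists (points; filled at an adjusted p under 0.05; vertical position within a list has no meaning), with each list's median as a bar. The STAT3 targets and the paralogs and partners hold 5 lower calls each, and the medians run from −0.34 to −0.08.

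Markers of some cell types were also lower in Aβ+DFMO, and others were not. Of 10 astrocyte markers 3 fell, Aldoc, Aldh1l1 and Fgfr3, and the summed authors' means of the list were 105525 in Control, 104951 in Aβ and 87587 in Aβ+DFMO. Of 10 markers of the oligodendrocyte lineage 8 fell, with sums of 47032, 46413 and 25458. Of 10 microglia and macrophage markers 2 fell, with sums of 15868, 10970 and 7539. In Aβ against Control 4 of these 10 fell in the authors' deposited table, where 33 of all 18783 genes fell. Of the 6 measured smooth muscle and mural markers 2 rose, with sums of 119370, 120590 and 135595, and none of the 8 fibroblast and meningeal markers passed, with sums of 38547, 46301 and 42799. Fn1 had the highest mean of those 8 in each group, at 19455, 25968 and 23363, so their sums largely follow this gene. No gene among all 18783 was at 0 in Aβ+DFMO, so the absence of markers at 0 there does not show which cells were present. In the same library 1 of 6 neuron markers rose and 1 fell, 1 of 5 markers of ependyma fell, none of 4 endothelial markers passed, and 1 of 5 markers of neural progenitors fell. With the GC trend taken out, the astrocyte markers that passed as lower were Aldoc, Aldh1l1 and Slc1a3, and Fgfr3 no longer did. In that fit Mbp and Sox10 of the oligodendrocyte lineage and Cd68 of microglia and macrophages were among the markers that were lower. Higher there were 2 of smooth muscle and mural cells, 1 of fibroblasts and meninges and 1 of neurons. Over the 18459 genes with a GC value, 134 were lower and 155 higher. The part of these cell types in the falls of Serpina3n, S1pr3, Lcn2, Gfap and Stat3 was not tested.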

How the data were processed

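Per the submitters' processing notes, STAR 2.7.3a, Partek, DESeq2 and FastQC were used, with the builds mm10 and GRCm39 and no role for each. The sources used here do not give the counting program, the annotation, the strand setting or any filter on low values. The deposited group means are a normalized signal, per the file headers least-squares means. A check showed that the log2 ratios the authors deposited are ratios of these means and that their adjustment is Benjamini-Hochberg across the 18783 genes. No test across libraries could be refitted, and every p-value is the authors' DESeq2 p-value or recomputed from it. Total reads per library were taken from a further deposited file, whose rows give only the group of each library.

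The members and gene lists were chosen with earlier results of these data known. All 10 members are described, and from each list the called genes and a few of the highest means are named. A gene was called at an adjusted p under 0.05. GC content and length came from a single transcript per gene in GENCODE M21, matched by symbol for 18459 genes (98.3%). A protein-coding transcript was preferred, then a transcript of the annotation's basic set, then the longest. The trend was a lowess curve (statsmodels 0.14.6, span 0.3) over genes at 200 units or more in Aβ, and the correction ignores the error of the curve. It was also run on simulated data whose noise was drawn from the same implied standard errors. Those data therefore cannot test the spread assumed for the single Aβ+DFMO library. In the Aβ+DFMO column, 80.3% of the 7271 values worth under 27 reads were whole multiples, within 0.05, of the worth of 1 read, which is too few to recover counts.

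Among the authors' p-values comparing Aβ with Control, 1.72% lay under 0.05 and 76.6% over 0.5, fewer low ones than an even spread would give, and the implied standard errors and intervals of that comparison rest on them.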

Additional observations from a re-analysis of the deposited data

How the results depend on the processing

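No paired analysis was possible because each gene was available here as a mean of its group; for the same reason no library could be left out and no other count normalization was run. For Aβ against Control, 0 members passed at thresholds of 0.01 and 0.1, over genes at 200 units or more in Aβ, with the GC trend taken out and after recentring on the median gene. For Aβ+DFMO against Aβ, where 5 passed, 3 did at a threshold of 0.01 (887 genes in all, in place of 1724) and 2 with the GC trend taken out (289 in all), and 5 did at 0.1, over genes at 200 units or more in Aβ, and after recentring. No called member changed sign under any of these settings, a pseudocount of 100, scaling by the summed signal or a length trend. The latter moved only the call of Lcn2. Uncalled members that changed sign were Vim and Nes with the GC trend taken out, and for Aβ against Control Gfap with the GC trend taken out and 2 genes, Nes and Stat3, with scaling by the summed signal. Depth limits Steap4 and Lcn2 most, at an estimated 48 and 161 reads.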
